A study of Mus musculus with 9 samples.

Results

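The transcripts described here encode 9 enzymes and partners that write, copy or remove DNA methylation: Dnmt1, Uhrf1, Dnmt3a, Dnmt3b, Dnmt3l, Tet1, Tet2, Tet3 and Tdg. They were taken by gene symbol from the 22322 genes of the deposited tables, each symbol had 1 row, and all 9 passed the filter on low counts. RNA-seq was done on 9 libraries of mouse R1 embryonic stem cells, an established line. Each group expressed 1 short hairpin RNA, with 3 libraries per group: sh-ctrl, whose genotype is given as WT, sh-Pfkp, given as a knockdown of Pfkp, and sh-Lin41, given as a knockdown of Lin41. In every group LIF had been withdrawn and embryoid bodies, the suspended aggregates in which stem cells start to differentiate, had formed over 6 days. Pfkp is the platelet isoform of phosphofructokinase, an enzyme of glycolysis, and Lin41 is the RNA-binding protein encoded by Trim71; the series title presents Pfkp as a kinase of Lin41. A single hairpin per gene was named and no rescue, so effects of a hairpin and of the knockdown cannot be told apart. Whether libraries within a group came from separate cultures is not stated, and p-values measure only the spread between libraries, which may be technical.

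Methylation of cytosine in CpG pairs is set by the de novo methyltransferases DNMT3A and DNMT3B, helped in early embryos and germ cells by the inactive cofactor DNMT3L. It is copied after replication by DNMT1, which UHRF1 brings to hemimethylated sites. TET dioxygenases oxidise 5-methylcytosine, and the glycosylase TDG excises the more oxidised bases, which base excision repair then replaces. Embryonic stem cells leaving the naive state usually raise DNMT3A and DNMT3B, and TET1 and TET2 are the main TET enzymes of the pluripotent state. The data are transcript levels, and neither DNA methylation nor protein was measured in the files used here.

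The sequence before the start sites is shown for Dnmt3a, Dnmt3b and Tet2, because these were the members that differed most clearly among the 3 groups. Each sequence is the 250 bases before an annotated start, written 5′ to 3′ on the strand of the gene and taken from RefSeq on GRCm38.p6. In the first pair, capitals mark the GC box (GGGCGG on either strand) and the E-box (CACGTG). In the Tet2 sequence, capitals mark a repeated 12-base word, CCGCGAGGGAGC. The Dnmt3a window lies at chr12:3891494-3891743 on the plus strand, before the most downstream of 3 annotated starts. The Dnmt3b window lies at chr2:153649199-153649448 on the plus strand, and the Tet2 window at chr3:133544391-133544640 on the minus strand.
Dnmt3a: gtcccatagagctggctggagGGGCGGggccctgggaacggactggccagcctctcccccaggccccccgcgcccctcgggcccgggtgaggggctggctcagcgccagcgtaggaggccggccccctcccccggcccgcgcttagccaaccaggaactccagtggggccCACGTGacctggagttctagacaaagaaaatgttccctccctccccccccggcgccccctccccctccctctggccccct
Dnmt3b: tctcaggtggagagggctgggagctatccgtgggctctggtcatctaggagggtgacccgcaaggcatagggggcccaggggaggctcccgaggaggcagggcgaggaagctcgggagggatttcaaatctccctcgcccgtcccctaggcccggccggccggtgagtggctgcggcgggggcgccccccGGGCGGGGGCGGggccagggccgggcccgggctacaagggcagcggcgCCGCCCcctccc
Tet2: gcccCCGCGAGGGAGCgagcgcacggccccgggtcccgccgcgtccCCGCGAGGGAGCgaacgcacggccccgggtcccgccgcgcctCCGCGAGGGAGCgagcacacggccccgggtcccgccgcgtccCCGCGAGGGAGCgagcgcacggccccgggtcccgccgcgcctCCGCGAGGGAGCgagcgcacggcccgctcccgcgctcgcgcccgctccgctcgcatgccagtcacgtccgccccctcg

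The Dnmt3a window shown held 1 GC box and 1 E-box, and the Dnmt3b window held 3 GC boxes. The windows of the other annotated Dnmt3a starts held 5 and 4 GC boxes and no E-box. The Tet2 window held the 12-base word 5 times, in separate copies. Of 32536 mouse windows of this length, 3.73% held any 12-base word at least 4 times. Overlapping copies were counted there, so that share can include runs of a single letter and is not a like comparison. The Tet2 window also held 51 CpG pairs, against a median of 6 over all windows, and 99.9% of windows had fewer. Among the 16 windows of the 9 members, CpG pairs ranged from 2 to 51. A GC box was found in 11 of these windows, belonging to 8 members, and in 33.0% of all windows. The E-box was found in 3 member windows, of Dnmt3a, Dnmt3l and Tdg, and in 6.04% of all. Any of 4 E2F words (TTTGGCGC, TTTCGCGC, TTTCCCGC and TTTGCCGC, on either strand) was present in 2 member windows, 1 each of Dnmt1 and Uhrf1, and in 1.88% of all. CCAAT was present in 6 member windows, of 4 members, and in 33.8% of all. The motifs were chosen after the sequences had been seen, and a match is a description of the letters only. Windows of neighbouring starts overlap in part for Dnmt3a.

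Library depth was similar across groups, with total counts between 15495194 and 20607683. Each targeted gene was lower in its own knockdown: Pfkp lay at 101 to 105 CPM, read counts scaled to a common depth by the TMM method, in sh-Pfkp against 245 to 248 in sh-ctrl (log2 fold change -1.27, SE 0.0271, edgeR adjusted p = 5.4e-27). Trim71 lay at 156 to 165 CPM in sh-Lin41 against 264 to 273 in sh-ctrl (-0.75, SE 0.0257, adjusted p = 1.32e-21), and at 347 to 360 CPM in sh-Pfkp (0.39, SE 0.0238, adjusted p = 4.06e-15). All 10 pluripotency markers lay far above 1 CPM in every group, with 179 CPM (Klf4 in sh-Pfkp) as the lowest group mean. Their summed level was 5416 to 5506 CPM in sh-ctrl, 4946 to 5018 in sh-Pfkp and 6260 to 6292 in sh-Lin41. The markers went both ways: 3 rose and 7 fell in sh-Pfkp, and 6 rose and 2 fell in sh-Lin41. These calls made up 100% and 80% of the list, beside 56.6% and 54.3% of all genes. In sh-Pfkp Tdgf1 fell most, from 984 to 551 CPM on average, while Nanog, Sox2 and Zfp42 rose. In sh-ctrl, 7 of 8 streak and mesoderm markers and 5 of 8 endoderm markers were under 1 CPM. The lists summed to 17.2 to 18.1 and 4.63 to 7.29 CPM there. Most of the mesoderm sum was Eomes (14.6 CPM on average). Afp and Cer1 of the endoderm list had 0 reads in all 9 libraries, Ttr had 0 in both knockdowns, Mesp1 of the mesoderm list had 0 in sh-Lin41, and Neurog2 of the neuroectoderm list had 0 in sh-ctrl and sh-Pfkp, and S100a4 of the stroma list had 0 in sh-ctrl and sh-Lin41. Sums of these lists were 12.8 to 13.4 and 3.96 to 5.59 CPM in sh-Pfkp, and 11.1 to 11.6 and 6.33 to 7.24 in sh-Lin41. The 8 neuroectoderm markers summed to 160 to 161 CPM in sh-ctrl, 150.04 to 158 in sh-Pfkp and 135 to 136 in sh-Lin41. Of 6 tested, 3 rose and 2 fell in sh-Pfkp, and 1 rose and 2 fell in sh-Lin41. These calls made up 83.3% and 50%, beside 56.6% and 54.3% of all genes. In sh-Pfkp Pax6 rose from 7.33 to 15.6 CPM on average and Elavl3 fell from 44.3 to 15.3. The 9 fibroblast and stroma markers summed to 239 to 243 CPM in sh-ctrl, 302 to 320 in sh-Pfkp and 281 to 294 in sh-Lin41. Most of each sum was Vim (226, 282 and 277 CPM on average). Of 8 tested stroma markers, 6 rose and 2 fell in sh-Pfkp (median log2 fold change 2.01) and 3 rose and 1 fell in sh-Lin41 (0.10). These calls made up 100% and 50%, beside 56.6% and 54.3% of all genes. Col1a2, Col3a1 and Vcam1 had 76 to 135 reads in each sh-Pfkp library, at most 1 in each sh-ctrl library and at most 6 in each sh-Lin41 library. Their means in sh-Pfkp were 5.08, 5.22 and 6.48 CPM, and Pdgfrb was lower there (2.57 against 8.28 CPM in sh-ctrl). The 13 mitochondrially encoded transcripts moved with the groups too. They summed to 50796 to 52733 CPM in sh-ctrl, 67855 to 70279.5 in sh-Pfkp and 71098 to 73822 in sh-Lin41. Called higher than in sh-ctrl were 12 of 13 in sh-Pfkp and 13 in sh-Lin41, where 28.3% and 26.9% of all genes were. A list of 15 proliferation genes summed to 5676 to 5735 CPM in sh-ctrl, 5318 to 5332 in sh-Pfkp and 5304 to 5344 in sh-Lin41. The part of these shifts in the values below was not tested, and in bulk RNA fewer cells of a type and less RNA per cell cannot be told apart.

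In the control embryoid bodies, Tet1 was the most abundant member per length of transcript and Tet3 the least. On the scale of the deposited FPKM (fragments scaled by transcript length and by depth), Tet1 had 143.6 ± 5.17 (SD, n = 3) and Uhrf1 followed with 111 ± 3.84. Dnmt3l had 97.5 ± 2.58, Dnmt1 78.2 ± 0.179 and Tdg 74.8 ± 1.96 FPKM. Lower still were Dnmt3b with 60.4 ± 2.36, Tet2 with 47.2 ± 0.344 and Dnmt3a with 30.01 ± 0.61 FPKM, and Tet3 stood far below at 1.80 ± 0.213. No neighbours in this order overlapped between libraries. In sh-Pfkp, Dnmt3l (111 ± 1.65 FPKM) passed Uhrf1 (98.5 ± 0.786) and the rest of the order was as in the control. In sh-Lin41, Tet2 (79.0 ± 1.12 FPKM) moved above Tdg (76.8 ± 2.75) and Dnmt3b (41.8 ± 1.43), and Tet2 and Tdg overlapped. Dnmt3c, a rodent paralogue acting in male germ cells, had between 0 and 2 reads per library and was not tested.

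**Figure D1:**
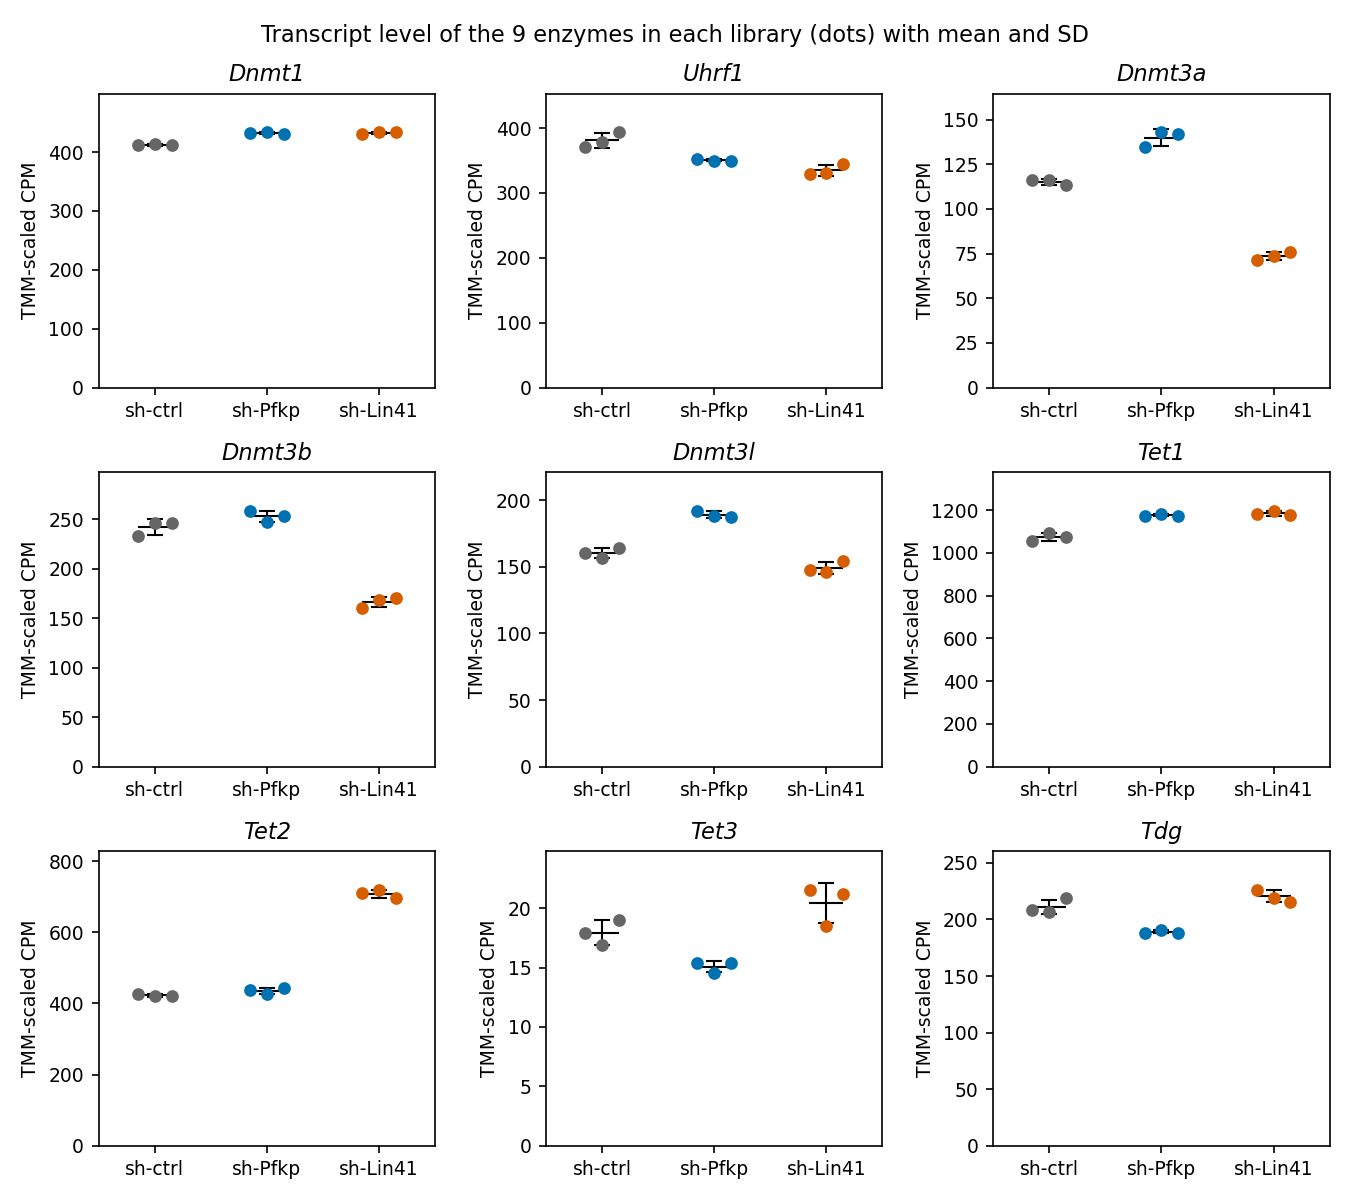
Level of each enzyme in every library, with TMM-scaled CPM on the vertical axis from 0 and the 3 hairpin groups on the horizontal axis; dots are libraries, the dash is the mean and the bar the SD (n = 3). Dnmt3a and Dnmt3b were lowest and Tet2 highest in sh-Lin41, and the small differences of Dnmt1 and Tet1 are visible as a narrow step between the control and both knockdowns.

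Most members passed the test in each comparison, as did more than 1 in 2 of all genes, so the sizes of the differences are described rather than their number. Between sh-Pfkp and sh-ctrl, 5 members rose, 3 fell and Tet2 did not pass, where edgeR called 56.6% of 13158 genes (28.3% higher and 28.3% lower). Between sh-Lin41 and sh-ctrl, 5 rose and 4 fell, with 54.3% of genes called (26.9% higher and 27.3% lower). In the direct comparison, 4 were higher and 3 lower in sh-Pfkp than in sh-Lin41, with 55.1% of genes called (27.4% higher and 27.8% lower). The median absolute log2 fold change of the members was 0.13, 0.18 and 0.34 in these comparisons, beside 0.21, 0.20 and 0.21 over all tested genes. The members were mostly abundant: Tet3 exceeded 44.9% of tested genes in mean CPM, and each other member at least 84.0%. The shares and medians over all genes were not matched for level. Both comparisons with control use the same 3 control libraries. With log2(FPKM + 1) instead of counts, limma called 2507 genes up and 3802 down for the Pfkp hairpin against control, beside 3721 and 3730 from the counts.

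The de novo methyltransferase genes differed between the knockdowns, Dnmt3a most widely of all 9 members: Dnmt3a and Dnmt3b fell in sh-Lin41, whereas Dnmt3a and Dnmt3l rose in sh-Pfkp. Dnmt3a had 116, 116 and 113 CPM under the control hairpin, 134, 143 and 142 in sh-Pfkp, and 71.5, 73.7 and 75.6 in sh-Lin41. All libraries of sh-Pfkp were above, and all of sh-Lin41 below, the control range. Its log2 fold change was 0.28 in sh-Pfkp (SE 0.0318, edgeR adjusted p = 5.85e-09) and -0.65 in sh-Lin41 (SE 0.0345, adjusted p = 1.16e-16). The direct difference between the knockdowns was 0.93 (SE 0.0333, adjusted p = 4.74e-21), which exceeded in size that of 94.2% of tested genes.

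Dnmt3b, the other active de novo enzyme, had 233, 246 and 246 CPM in sh-ctrl and 160.04, 168 and 169.8 in sh-Lin41. The sh-Lin41 libraries lay below every control, with a log2 difference of -0.54 (SE 0.0278, edgeR adjusted p = 3.6e-17). In sh-Pfkp it had 258, 248 and 253 CPM, all above the control range though the lowest of them by about 1 CPM. That rise was 0.06 (SE 0.0267, edgeR adjusted p = 0.0397), and it was lost with DESeq2 (adjusted p = 0.0598), with scaling by library size alone (0.02, adjusted p = 0.62), by upper quartiles (0.434) and on log2 FPKM (0.775). It was also lost without sh-ctrl replicate 1 (adjusted p = 0.239), sh-Pfkp replicate 1 (0.131) or sh-Pfkp replicate 3 (0.0614). Between the knockdowns Dnmt3b stood higher in sh-Pfkp by 0.61 (SE 0.0274, edgeR adjusted p = 1.85e-18).

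Dnmt3l, whose product stimulates both enzymes without methylating DNA itself, had 160.3, 156 and 164 CPM in sh-ctrl, 192, 188 and 187 in sh-Pfkp, and 147, 146 and 154 in sh-Lin41. No 2 groups overlapped, and sh-Pfkp was the highest. Its log2 fold change was 0.24 in sh-Pfkp (SE 0.0277, edgeR adjusted p = 1.04e-08) and -0.10 in sh-Lin41 (SE 0.0283, adjusted p = 0.00254), and the direct difference was 0.34 (SE 0.0275, adjusted p = 2.92e-12).

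The 3 de novo genes did not move by the same factor, and their shares of summed FPKM lay apart between groups. Dnmt3l made up 51.9 ± 1.11% of the sum in sh-ctrl (SD, n = 3), 53.3 ± 0.37% in sh-Pfkp and 60.1 ± 0.712% in sh-Lin41. Dnmt3b made up 32.1 ± 0.993%, 29.2 ± 0.0359% and 27.7 ± 0.633% in the same order, and Dnmt3a 15.97 ± 0.518%, 17.5 ± 0.405% and 12.2 ± 0.114%. No pair of groups overlapped for any of the 3 genes. The exact two-sided permutation test gave p = 0.1 for each difference, the smallest value that 3 against 3 libraries allow, and 0.12 after adjustment over 18 shares tested.

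**Figure D2:**
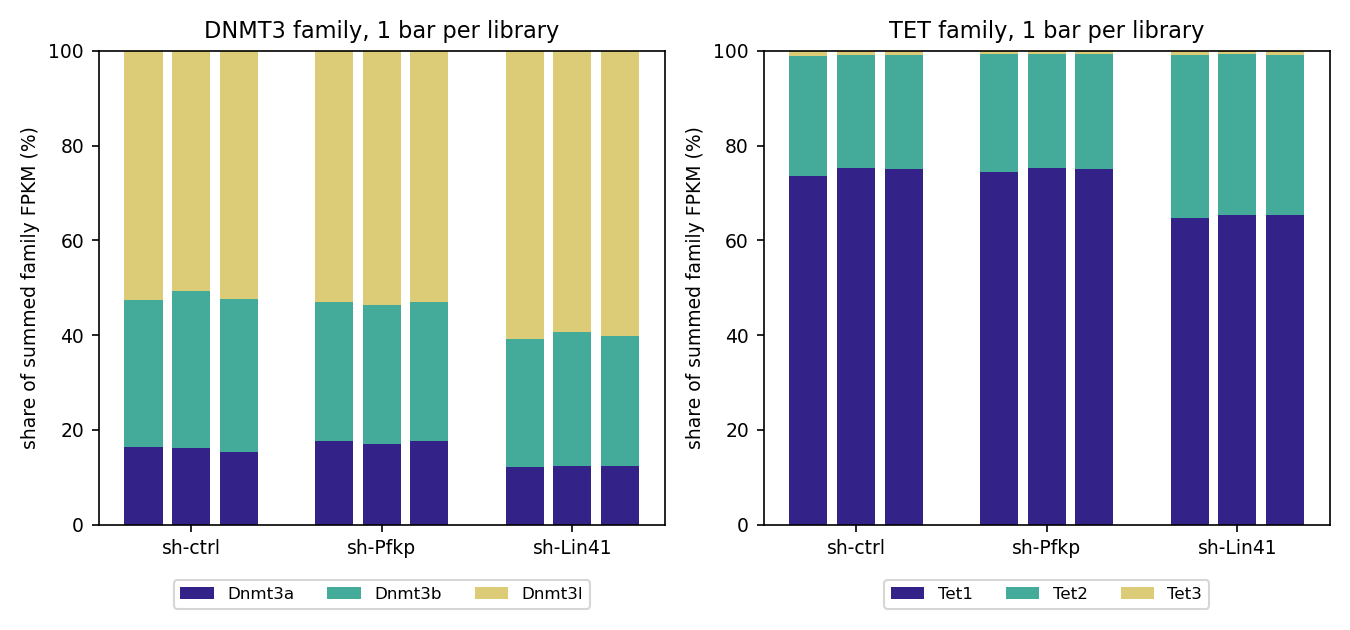
Share of each gene in the summed FPKM of its family, in percent, with 1 stacked bar per library and libraries grouped by hairpin; the left panel holds Dnmt3a, Dnmt3b and Dnmt3l and the right panel Tet1, Tet2 and Tet3. Dnmt3l averages 51.9% in sh-ctrl and 60.1% in sh-Lin41, and Tet2 averages 24.5% and 34.1%, while the TET bars of sh-ctrl and sh-Pfkp overlap except for the thin Tet3 band.

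Tet2 rose in sh-Lin41 by the largest log2 fold change of the 9 members against control, and its direct difference between the knockdowns also passed the test. It had 427, 422 and 419.9 CPM in sh-ctrl, 437, 427 and 443 in sh-Pfkp, and 709.99, 719.5 and 696 in sh-Lin41. Every sh-Lin41 library was far above the others, and the lowest sh-Pfkp library was only just above the highest control. The log2 fold change was 0.75 in sh-Lin41 (SE 0.0194, edgeR adjusted p = 1.51e-24) and -0.70 for sh-Pfkp against sh-Lin41 (SE 0.0192, adjusted p = 8.55e-24). In sh-Pfkp it was 0.04 (SE 0.02, adjusted p = 0.0617), which did not pass. That value passed with another size factor (RLE, adjusted p = 0.0393), with the 6 libraries of the pair alone (0.0449) and when any 1 of 5 libraries was left out (sh-Pfkp replicate 2, sh-ctrl replicate 1 or any sh-Lin41 replicate, adjusted p from 0.0137 to 0.0462). It turned to -0.0041 with scaling by library size alone.

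Tet1, the most abundant TET gene of these cells, was higher in both knockdowns by read counts. It had 1054, 1094 and 1072 CPM in sh-ctrl, 1174, 1179.6 and 1172 in sh-Pfkp, and 1181, 1196 and 1177 in sh-Lin41. Both knockdowns lay above every control, and they overlapped each other. The log2 fold change was 0.13 in sh-Pfkp (SE 0.0161, edgeR adjusted p = 2.83e-08) and 0.14 in sh-Lin41 (SE 0.016, adjusted p = 5.11e-09). The direct difference was -0.01 (SE 0.0159, 95% interval -0.05 to 0.03, adjusted p = 0.567), but it passed with scaling by library size (-0.06, adjusted p = 0.00216) and by upper quartiles (-0.05, adjusted p = 0.00834).

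In the deposited FPKM the difference of Tet1 from control was smaller. Its FPKM were 138, 147 and 146 in sh-ctrl, 142, 144 and 148 in sh-Pfkp, and 149, 153.5 and 150.2 in sh-Lin41, so sh-Pfkp overlapped the control while sh-Lin41 lay above it. With limma on log2(FPKM + 1) the log2 fold change was 0.01 in sh-Pfkp (adjusted p = 0.818) and 0.07 in sh-Lin41 (adjusted p = 0.0622). The authors' deposited table gives a log2 FPKM ratio of 0.0088 for Tet1 in sh-Pfkp together with an FDR of 1.04e-15, and 0.07 in sh-Lin41 with an FDR of 2.07e-14. Counts and FPKM are tied by the transcript length used for each library, which can be recovered from their quotient. This implied length of Tet1 was 7737, 7507 and 7441 bases in sh-ctrl, 8107, 8016 and 7756 in sh-Pfkp, and 8012, 7838 and 7925 in sh-Lin41. It was thus 5.26% and 4.80% longer in the knockdowns, without overlap (exact two-sided permutation p = 0.1 each, the smallest possible, and 0.45 after adjustment over 27 tests). For comparison, groups did not overlap in implied length for 15.98% (sh-Pfkp) and 17.0% (sh-Lin41) of 7329 genes, and the median absolute difference was 0.535% and 0.574%. Which transcripts of Tet1 the length stands for was not tested.

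**Figure D3:**
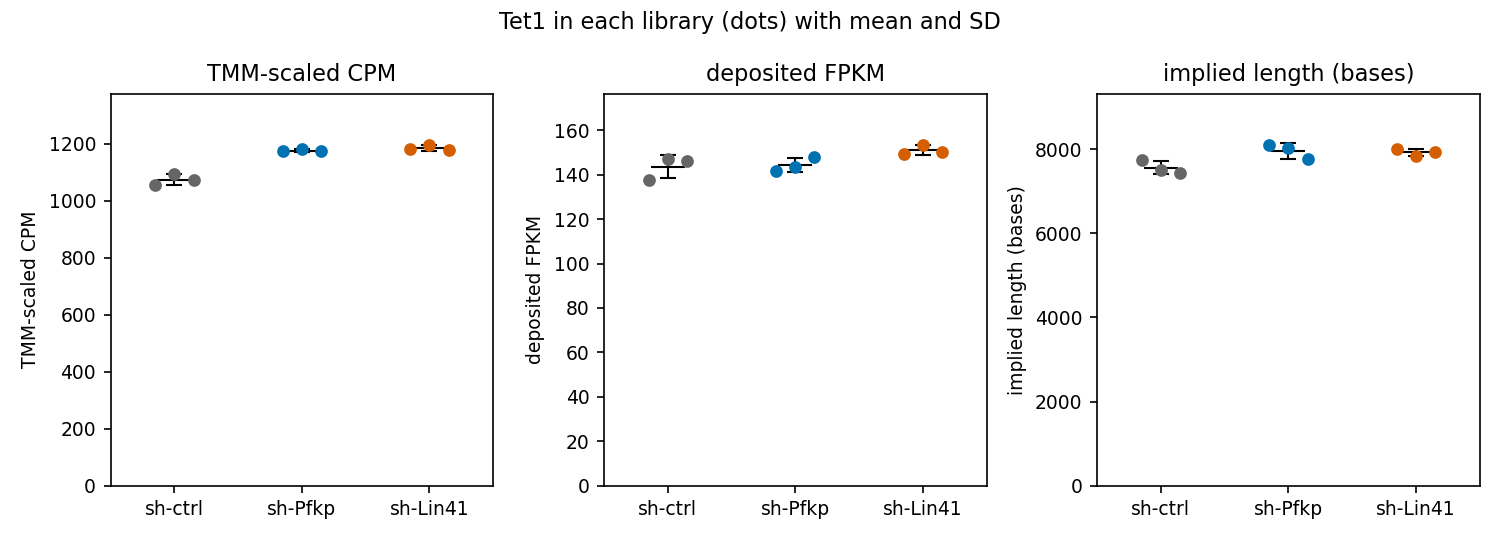
Tet1 in every library in 3 units, each on a vertical axis from 0: TMM-scaled CPM, deposited FPKM and the implied transcript length in bases; dots are libraries, with the mean (dash) and SD (bar, n = 3). The knockdown libraries lie above all controls in CPM and in implied length, while in FPKM the sh-Pfkp libraries overlap the controls.

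Implied length varied more for some members than for others. Its coefficient of variation over 9 libraries was 0.068% for Dnmt1, 0.0905% for Tet2 and 0.0992% for Dnmt3l and 0.858% for Dnmt3b, beside a median of 1.11% over genes. It was 1.38% for Tdg, 2.53% for Uhrf1, 2.94% for Tet1, 4.51% for Dnmt3a and 5.49% for Tet3. Counts and FPKM differ in scaling too, since only the CPM carry the TMM factors: in sh-Pfkp the log2 fold change of Dnmt3l was 0.24 from counts and 0.19 on log2 FPKM. Dnmt3a was longer in sh-Lin41 (4039, 4054 and 3982 bases) than in sh-ctrl (3895, 3837 and 3910), by 3.72% and without overlap (exact permutation p = 0.1, adjusted 0.45). In sh-Pfkp its implied lengths of 3486, 3996 and 3787 bases spread over both other groups. Tet3 ranged from 8914 to 10929 bases within sh-ctrl alone.

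Tet3, the oocyte and neural member of the family, was scarce here. It had 17.9, 16.9 and 19.0 CPM in sh-ctrl, 15.4, 14.5 and 15.4 in sh-Pfkp, and 21.5, 18.5 and 21.2 in sh-Lin41. The sh-Pfkp libraries were all below the control, the log2 value being -0.25 (SE 0.0801, edgeR adjusted p = 0.00789), a call lost without sh-ctrl replicate 3 (-0.20, adjusted p = 0.0589). In sh-Lin41 the libraries overlapped the control, and the rise of 0.18 (SE 0.0759, edgeR adjusted p = 0.0425) was lost with DESeq2 (0.11), on log2 FPKM (0.274) and without sh-Lin41 replicate 1 or 3 or sh-ctrl replicate 1 or 2 (adjusted p from 0.0933 to 0.178). The direct difference was -0.43 (SE 0.077, edgeR adjusted p = 1.48e-05).

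Within the TET family, Tet2 held a larger share in sh-Lin41 than in the other groups. Tet2 made up 24.5 ± 0.772% of summed TET FPKM in sh-ctrl (SD, n = 3), 24.4 ± 0.38% in sh-Pfkp and 34.1 ± 0.32% in sh-Lin41, and Tet1 made up 74.6 ± 0.903%, 74.9 ± 0.397% and 65.1 ± 0.355%. The sh-Lin41 libraries were apart from both other groups (exact two-sided permutation p = 0.1, the smallest possible, adjusted 0.12). Between sh-Pfkp and sh-ctrl the shares of Tet1 and Tet2 overlapped (exact permutation p = 0.7 and 0.9). Tet3 held 0.937 ± 0.134% in sh-ctrl, 0.731 ± 0.0209% in sh-Pfkp and 0.872 ± 0.0847% in sh-Lin41.

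Tdg, the glycosylase that completes the oxidative route, was lower in sh-Pfkp. It had 208, 206 and 219 CPM in sh-ctrl, 188, 191 and 188 in sh-Pfkp, and 226, 219 and 216 in sh-Lin41. The sh-Pfkp libraries were below all the others, while sh-Lin41 and sh-ctrl overlapped. The log2 fold change was -0.16 in sh-Pfkp (SE 0.0265, edgeR adjusted p = 6.14e-06) and -0.22 against sh-Lin41 (SE 0.026, adjusted p = 1.2e-08). In sh-Lin41 it was 0.06 (SE 0.0259, edgeR adjusted p = 0.0439), and that call was lost with DESeq2 (0.116), with 3 other scalings (adjusted p from 0.0513 to 0.0598), on log2 FPKM (0.315) and without sh-Lin41 replicate 1 or 2, sh-Pfkp replicate 2 or 3, or sh-ctrl replicate 1 or 2 (adjusted p from 0.0545 to 0.208).

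The maintenance pair moved in opposite directions by small amounts. Dnmt1, the copying methyltransferase, had 412, 414 and 411 CPM in sh-ctrl, 432, 434 and 431 in sh-Pfkp, and 430.5, 434 and 433 in sh-Lin41. Both knockdowns were above every control and overlapped each other. The log2 fold change was 0.07 in sh-Pfkp (SE 0.0189, edgeR adjusted p = 0.00267) and 0.07 in sh-Lin41 (SE 0.0188, adjusted p = 0.00231). The first was lost with scaling by library size (0.02, adjusted p = 0.363), by upper quartiles (0.03, adjusted p = 0.189) and on log2 FPKM (0.02, adjusted p = 0.378). The direct difference was -0.0013 (95% interval -0.05 to 0.04, adjusted p = 0.957), and with scaling by library size it passed at -0.05 (adjusted p = 0.0288).

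Uhrf1, which guides DNMT1 to newly replicated DNA, had 371, 379 and 394 CPM in sh-ctrl, 353, 349.7 and 349.9 in sh-Pfkp, and 329, 331 and 344 in sh-Lin41. The groups did not overlap, and sh-Lin41 was lowest. Its log2 fold change was -0.12 in sh-Pfkp (SE 0.023, edgeR adjusted p = 4.54e-05) and -0.19 in sh-Lin41 (SE 0.023, adjusted p = 3.04e-08). Of 15 proliferation genes listed with it, many of them active in S phase, 8 fell and 1 rose in sh-Pfkp. In sh-Lin41, 11 fell and 2 rose. These calls made up 60% and 86.7% of the list, beside 56.6% and 54.3% of all genes. The part of the proliferation genes in the Uhrf1 values was not tested. Between the knockdowns Uhrf1 was higher in sh-Pfkp by 0.07 (SE 0.023, edgeR adjusted p = 0.0144), a call lost with scaling by library size (0.02, adjusted p = 0.465), by upper quartiles (0.03, adjusted p = 0.282) and without sh-Lin41 replicate 1 (0.06, adjusted p = 0.0522), and turned to -0.02 on log2 FPKM.

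**Figure D4:**
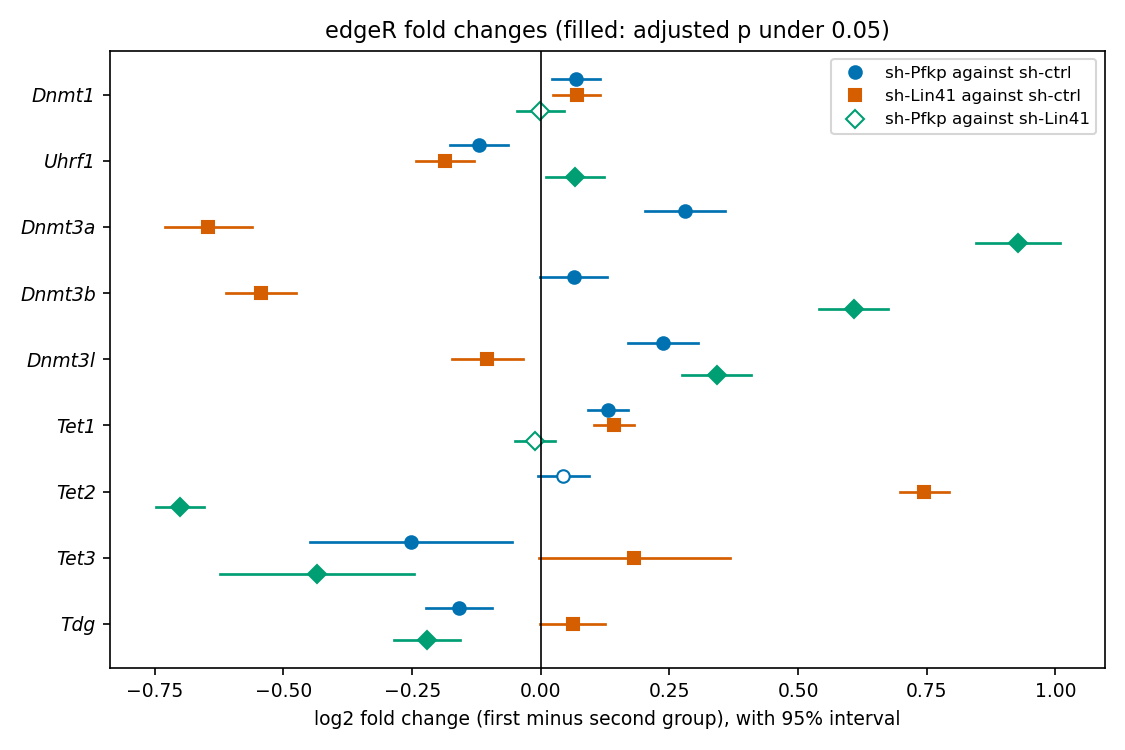
Log2 fold changes of the 9 members (horizontal axis) in the 3 comparisons, with 95% intervals from the SE on 6 residual degrees of freedom; filled marks passed edgeR's test at an adjusted p under 0.05 and open marks did not. Dnmt3a, Dnmt3b and Tet2 are farthest from 0 in sh-Lin41; the test borrows spread across genes, so a call such as Dnmt3b in sh-Pfkp can pass while its interval touches 0.

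No member reached the authors' own list of changed genes, which required an absolute log2 ratio over 1. In the authors' deposited table the log2 ratio of Tet2 in sh-Lin41 was 0.74, that of Dnmt3a was -0.70 and that of Dnmt3b was -0.53. For sh-Pfkp the authors' deposited table gives 0.28 for Dnmt3a, 0.19 for Dnmt3l, -0.22 for Tdg, -0.35 for Tet3 and -0.18 for Uhrf1.

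Several genes tracked the 3 members with the clearest differences across the 9 libraries, among 8449 candidates. Closest to Tet2 were Inhbb (Pearson r = 0.997), a subunit gene of activin and inhibin, Elk3 (0.996) and Zfhx2 (0.996). Inhbb had 88.2 CPM in sh-ctrl, 88.8 in sh-Pfkp and 176.5 in sh-Lin41 on average. Dnmt3a was tracked by Ctnnal1 (0.998) and Apela (0.995), which encodes a ligand of the apelin receptor. Apela had 20.7, 26.8 and 10.5 CPM. Dnmt3b was tracked by the translation factor gene Eif4g2 (0.999), Ptp4a2 (0.996) and Heatr1 (0.995). These correlations rest on 3 groups of libraries and describe a shared order of the groups only.

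The other genes of the pathway were described from lists of cofactors, regulators, readers, partners, repair genes and methylation-silenced germline genes. Outside the germline list, 55 genes were listed and 52 were tested. Of the 52, 24 rose and 9 fell in sh-Pfkp, and 16 rose and 20 fell in sh-Lin41. These calls made up 63.5% and 69.2% of the genes tested, beside 56.6% and 54.3% of all genes. Their median log2 fold change was 0.08 in sh-Pfkp and 0.04 in sh-Lin41, beside -0.005 and 0.004 over all tested genes. Between the knockdowns 22 were higher and 13 lower in sh-Pfkp, which was 67.3% of those tested, beside 55.1% of all genes. Of 17 cofactors of the methyltransferases, 11 rose and 2 fell in sh-Pfkp, while 2 rose and 9 fell in sh-Lin41; over all genes 28.3% rose and 28.3% fell in sh-Pfkp, and 26.9% and 27.3% in sh-Lin41. Mat2a, which makes the methyl donor S-adenosylmethionine, rose from 322.5 ± 4.93 to 493 ± 5.93 CPM in sh-Pfkp (SD, n = 3), which on the log2 scale was 0.61 (SE 0.0207, edgeR adjusted p = 8.29e-22). In sh-Lin41 it had 331 ± 5.32 CPM and did not pass. Hells, a chromatin remodeller needed for methylation of repeats, rose by 0.25 in sh-Pfkp (SE 0.0184) and fell by 0.27 in sh-Lin41 (SE 0.0188). Its activator gene Cdca7 exceeded its sh-Lin41 level in sh-Pfkp by 0.44 (SE 0.0292, edgeR adjusted p = 2.61e-14). Nsd1, whose H3K36 methylation recruits DNMT3A, rose in both, by 0.40 (SE 0.0192) and 0.47 (SE 0.019). Setdb1, an H3K9 methyltransferase, rose by 0.41 in sh-Pfkp (SE 0.0243). The histone demethylase gene Kdm1a fell in both knockdowns, by 0.24 in sh-Pfkp (SE 0.0252) and 0.31 in sh-Lin41 (SE 0.0251). In sh-Lin41 the H3K9 methyltransferase gene Ehmt2 fell by 0.34 (SE 0.0301).

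Of 8 described regulators of Dnmt3 genes and Uhrf1, 5 rose and 2 fell in sh-Pfkp, and 6 rose and 1 fell in sh-Lin41. These calls made up 87.5% of the list in each knockdown, beside 56.6% and 54.3% of all genes. Prdm14, which represses Dnmt3 genes in naive stem cells, had 29.3 ± 0.781 CPM in sh-ctrl, 34.7 ± 0.805 in sh-Pfkp and 49.5 ± 0.812 in sh-Lin41 (SD, n = 3). On the log2 scale it rose by 0.24 (SE 0.0518, edgeR adjusted p = 0.000222) and by 0.75 (SE 0.0485, adjusted p = 1.37e-14). Rbl1, the pocket protein p107, rose by 0.91 in sh-Lin41 (SE 0.0537), from 25.4 to 47.7 CPM on average. Dppa3, whose product displaces UHRF1 from chromatin, fell from 19.0 ± 2.38 to 5.56 ± 0.534 CPM in sh-Lin41 (log2 -1.76, SE 0.104, edgeR adjusted p = 1.53e-15). Kdm2b, which binds unmethylated CpG islands, rose by 0.42 in sh-Pfkp (SE 0.0302), where Gadd45a fell by 0.33 (SE 0.0446). Zscan4c, a gene of the two-cell-like state with near-identical copies among which reads may be split, had 3.93 CPM in sh-ctrl, 16.2 in sh-Pfkp and 15.7 in sh-Lin41.

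**Figure D5:**
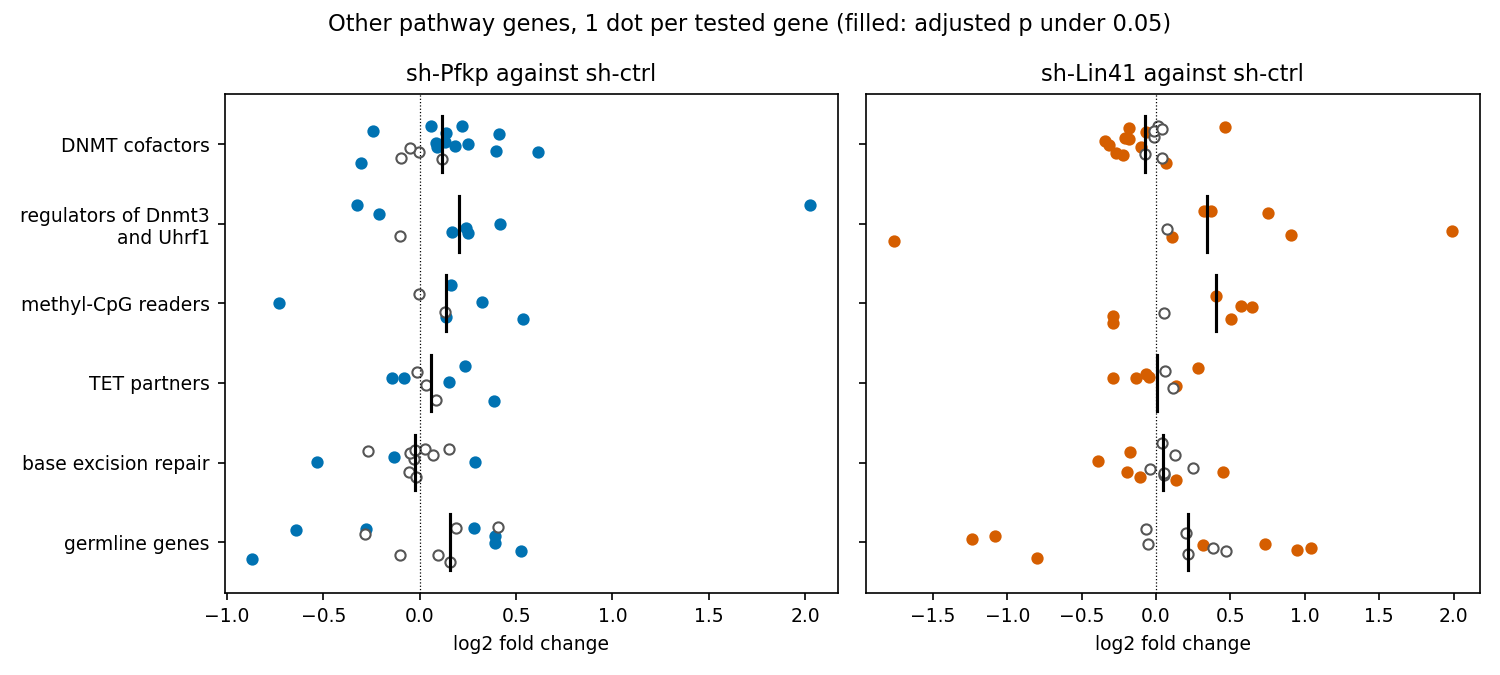
Log2 fold changes (horizontal axis) against sh-ctrl of 52 other pathway genes and 13 germline genes, grouped by list. The left panel is sh-Pfkp and the right panel sh-Lin41. Each dot is a gene, filled where edgeR's adjusted p was under 0.05. The dark vertical bar is the list's median, and the horizontal scales differ. Most cofactors lie above 0 in sh-Pfkp and below 0 in sh-Lin41, and the regulators spread widest in sh-Lin41.

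Readers and downstream genes moved in both directions. Of 7 readers of methylated CpG, 4 rose and 1 fell in sh-Pfkp (71.4% called), and 4 rose and 2 fell in sh-Lin41 (85.7%). Over all genes, 56.6% and 54.3% were called. Zbtb38 rose in both, by 0.54 (SE 0.0496) and 0.51 (SE 0.0494), and Mbd2 rose by 0.65 in sh-Lin41 (SE 0.092). Mbd1 rose by 0.32 in sh-Pfkp (SE 0.0583) and was higher there than in sh-Lin41 by 0.61 (SE 0.0589). Of 8 tested partners of TET proteins, 3 rose and 2 fell in sh-Pfkp (62.5% called), and 2 rose and 4 fell in sh-Lin41 (75%). Among them Idh1, a source of the TET cosubstrate 2-oxoglutarate, rose by 0.39 in sh-Pfkp (SE 0.0388), and Ogt, which binds TET1, fell by 0.14 in sh-Lin41 (SE 0.0247). Of 12 base excision repair genes, 1 rose and 2 fell in sh-Pfkp (25% called), and 2 rose and 4 fell in sh-Lin41 (50%). Neil3, another DNA glycosylase, fell by 0.53 in sh-Pfkp (SE 0.114) and rose by 0.45 in sh-Lin41 (SE 0.102), and Ung, the uracil glycosylase gene, fell by 0.39 in sh-Lin41 (SE 0.0436).

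Germline genes that promoter methylation keeps silent in somatic cells did not move together. Of 13 tested, 4 rose and 3 fell in each knockdown, and these 53.8% called are close to the shares over all genes (56.6% and 54.3%). Hormad1, a meiotic axis gene, had 25.3 ± 2.22 CPM in sh-ctrl, 36.4 ± 2.85 in sh-Pfkp and 52.1 ± 3.41 in sh-Lin41 (SD, n = 3), rises of 0.53 (SE 0.0666) and 1.04 (SE 0.0625). Sycp3, of the synaptonemal complex, had 16.8 ± 1.24, 9.24 ± 0.584 and 7.14 ± 0.522 CPM, falling by 0.87 (SE 0.095) and 1.24 (SE 0.0981). Ddx4, the germ cell helicase Vasa, fell by 0.64 (SE 0.09) and 1.08 (SE 0.0935).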

How the data were processed

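Gene expression was measured by RNA-seq in 9 libraries, 3 for each hairpin, grouped by the labels. Per the labels, RNA was extracted with Trizol and libraries made with a NEBNext Ultra RNA kit. Per the submitters' processing notes, the tools included StringTie 1.3.1, HISAT2, RSEM, Bowtie2 2.2.8 and fastp 0.18.0, without a role for each. As to the genome build of the files, their annotation and strand setting, each is not given in the sources used here.

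Whole-number read counts were deposited for each gene, in 1 column per library per the file headers. RSEM is named, so they may be rounded estimates by the authors. FPKM per library, a log2 ratio and a p-value with FDR per gene were deposited beside them, per the file headers. Of 22322 genes, 4283 had 0 counts in all libraries, and control values were identical in both tables. Total counts ranged from 15495194 to 20607683.

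All 9 libraries were fitted together with edgeR 4.0.16 in R 4.3.3 (filterByExpr, TMM, quasi-likelihood test, Benjamini-Hochberg over 13158 genes, threshold 0.05, no minimum fold). SE is the absolute log2 fold change over the square root of F. Simulated data for the Pfkp comparison held 13069 tested genes, with 50 changed genes at each fold. Recovery was 26% at 1.1-fold, 68% at 1.25-fold, 86% at 1.5-fold and 96% at 2-fold, with 4 false calls. Every simulated gene had the same small spread, near the biological coefficient of variation of the data (0.0213). The false calls hold for that spread only. Changed genes were drawn from all of at least 1 CPM in sh-ctrl, so recovery at the members' levels was not measured. Alternatives were DESeq2 1.42.0, limma 3.58.1 (voom, and log2(FPKM + 1) with a pseudocount of 1), other scalings and filters, fits of 6 libraries, a replicate block and leaving out each library. Implied length is count divided by total count and FPKM; it was added after the data were seen. Shares and implied lengths were tested with exact permutation in SciPy 1.17.1.

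Replicate pairs had a median chi-square of 0.661 to 0.769 against 0.455 expected from counting noise, so none was treated as 1 library. Members and lists were chosen with earlier results of these data known. All 9 members are named; of each other list, up to 4 called genes per comparison with the smallest adjusted p and at least 1 CPM were eligible, and for likeness the 3 best-correlated genes of at least 10 CPM for the 3 members with the smallest p over all groups. Values given beside an eligible gene for the other knockdown complete its description. Some genes that the rule selects are not reported here.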

Additional observations from a re-analysis of the deposited data

How the results depend on the processing

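Among member log2 fold changes recomputed under settings other than leaving out a library, 241 kept direction and side of the threshold, 18 lost the call, 5 gained it and 6 turned sign. With 1 library left out, these numbers were 214, 15, 5 and 9. Every sign change was of a value under 0.07 in size. The Dnmt1 difference between the knockdowns turned to 0.0027 with 6 libraries, 0.0076 with DESeq2 and 0.0076 with RLE factors, and ranged from -0.00091 to 0.00604 with 1 library left out. That of Tet1 ranged from -0.012 to 0.00045. The Tet2 change in sh-Pfkp turned to -0.0041 with library size alone and -0.0039 on log2 FPKM, and Uhrf1 between the knockdowns to -0.0197 on log2 FPKM. The number of members higher in sh-Pfkp than in sh-ctrl was 3 with library size, 3 with upper quartiles and 2 on log2 FPKM. Of all 13158 genes, 3018, 3141 and 2507 were higher in these settings, beside 3721 in the main fit. The median log2 fold change over all genes was -0.053, -0.044 and -0.039, beside -0.005. Members higher in sh-Lin41 numbered 3 with DESeq2, 2 on log2 FPKM and 3 to 5 with 1 library left out. Of all genes, 2992, 2841 and 3222 to 3576 were higher there, beside 3545 in the main fit. Members lower in sh-Pfkp than in sh-Lin41 numbered 5 with library size, where 4387 of all genes were lower, beside 3652 in the main fit. With 1 library left out, the share difference between sh-Pfkp and sh-ctrl ranged from -0.19 to 0.63 percentage points for Tet1 and from -0.36 to 0.32 for Tet2, and that between sh-Lin41 and sh-ctrl from -0.12 to 0.0082 for Tet3. The cause of these changes was not tested.

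What a replicate number stands for is not stated. Libraries of sh-ctrl and sh-Pfkp with the same number correlated in their deviations with r of 7.3e-05, 0.125 and 0.0887 over all tested genes and 0.108, 0.307 and 0.449 over 8630 genes of at least 10 CPM, a minimum chosen after seeing the data. At that minimum, the r between sh-Lin41 libraries and those of the same number was 0.0344, -0.13 and -0.13 for sh-ctrl and -0.00096, -0.308 and -0.314 for sh-Pfkp, so the numbers were not taken to pair libraries. Libraries of different number correlated too at that minimum. The r ranged from -0.389 (sh-ctrl replicate 2 and sh-Pfkp replicate 3) to 0.402 (sh-Pfkp replicate 2 and sh-Lin41 replicate 3). A batch shared across other numbers was not tested. With the replicate block, which follows the numbers, no member changed its call or direction, and the Dnmt3b change in sh-Pfkp was 0.07. Family shares recomputed from counts used each gene's median implied length. Depth limits Tet3 most, at 14.5 to 21.5 CPM.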
